A study of Homo sapiens with 12 samples.

Results

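The map described here is the single list of genomic regions that the authors deposited for nucleolus-associated DNA of naive H9 human embryonic stem cells. H9 is an established cell line, and its naive cells were kept in RSeT medium without further treatment, per the labels. The list rests on 6 of the series' 12 libraries: 3 of DNA from pelleted nucleoli and 3 of whole-cell DNA from the same state. The other 6 libraries come from primed cells, kept in mTeSR. Every row on chromosomes 1 to 22 was taken, which gave 58225 regions of the 61750 in the file (both states' lists together hold 91744); the remaining 3525 lie on chromosome X. The file holds positions on hg38 and no score, depth or value per library. There are therefore no replicates and no error over cultures, and the naive identity of the cells could not be checked against marker genes, since RNA was not measured in these libraries.

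Nucleolus-associated domains, NADs, are stretches of chromosomes that lie at or near the nucleolus, the compartment in which ribosomal RNA is made. They are known for silent chromatin, for gene-poor sequence and for clustered gene families, and they overlap in part with the domains found at the nuclear lamina. The chromosomes that carry the ribosomal DNA arrays on their short arms, called acrocentric, are 13, 14, 15, 21 and 22. The regions are called naive NADs below, as the labels name the list, and a 10 kb bin is said to be covered when a region holds it.

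4 promoters show the range of sequence that lay at the extremes of the map. They come from RefSeq on GRCh38.p14, whose coordinates are those of hg38, and run from 250 bases before to 50 bases after a transcription start, 5′ to 3′, with each CpG dinucleotide in capitals. The first pair lay inside naive NADs in the 2 densest 1 Mb windows that hold at least 5 coding genes: TRIM51 (chr11:55883047-55883346, plus strand) and TRIM49B (chr11:49028573-49028872, plus strand), members of a repeated family of tripartite-motif genes. The second pair lay outside in the 2 sparsest such windows: C4orf51 (chr4:145679896-145680195, plus strand) and ADAM19 (chr5:157575726-157576025, minus strand), which encodes a membrane metalloprotease.
TRIM51: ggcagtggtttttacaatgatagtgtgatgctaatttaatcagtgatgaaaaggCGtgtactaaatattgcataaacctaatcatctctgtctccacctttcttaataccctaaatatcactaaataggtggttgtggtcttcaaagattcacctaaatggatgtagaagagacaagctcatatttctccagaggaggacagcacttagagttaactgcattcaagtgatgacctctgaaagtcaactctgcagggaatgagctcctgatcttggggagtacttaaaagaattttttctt
TRIM49B: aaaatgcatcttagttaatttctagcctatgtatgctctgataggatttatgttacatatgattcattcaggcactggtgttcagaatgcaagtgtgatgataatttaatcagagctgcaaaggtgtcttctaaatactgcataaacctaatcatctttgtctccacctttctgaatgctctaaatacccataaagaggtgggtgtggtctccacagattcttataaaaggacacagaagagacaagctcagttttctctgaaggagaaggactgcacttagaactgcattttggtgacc
C4orf51: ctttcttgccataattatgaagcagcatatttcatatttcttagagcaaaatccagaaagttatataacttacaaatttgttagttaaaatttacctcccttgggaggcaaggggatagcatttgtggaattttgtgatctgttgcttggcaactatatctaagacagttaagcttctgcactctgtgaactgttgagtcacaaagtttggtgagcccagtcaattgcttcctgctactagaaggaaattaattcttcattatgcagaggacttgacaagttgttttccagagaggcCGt
ADAM19: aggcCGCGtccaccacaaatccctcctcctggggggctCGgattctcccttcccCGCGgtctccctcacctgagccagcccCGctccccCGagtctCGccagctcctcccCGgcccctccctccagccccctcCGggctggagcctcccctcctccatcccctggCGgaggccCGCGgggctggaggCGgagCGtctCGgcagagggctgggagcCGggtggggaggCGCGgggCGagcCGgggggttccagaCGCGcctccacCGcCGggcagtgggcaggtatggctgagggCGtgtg
The GC content was 38.0% for TRIM51, 38.3% for TRIM49B and 37.7% for C4orf51, with 1, 0 and 1 CpG. ADAM19 had 75.7% and 26 CpG. An AT-rich promoter thus occurred on either side of the map, and the comparison over all promoters is given further on.

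The naive map was made of very many short pieces. Its 58225 regions covered 1089 Mb, which was 39.5% of the 2757 Mb that could be analysed on the autosomes. The mean region was 18.7 kb long (SD 17.0 over regions) and the median 10 kb, a single bin. Single bins made up 58.4% of the regions and 31.2% of the covered sequence. Regions of 2 bins held 23.9% of it, those of 3 to 4 bins 24.4% and those of 5 to 9 bins 15.4%. The 386 regions of 100 kb or more held 4.99%. Starts were all multiples of 10 kb, and of the ends only 7 were not, each at the last region of its chromosome.

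Gaps between neighbouring regions were short as well. Of 58194 gaps, 39.7% were 10 kb wide and 21.5% were 20 kb wide. The median gap was 20 kb, the mean 28.6 kb (SD 27.3 over gaps), the 90th percentile 60 kb and the 99th percentile 140 kb. Region centres stood 48.25 kb apart on average, with a median of 40 kb. Gaps of 200 kb or more numbered 135 and held 1.95% of the uncovered sequence between regions.

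**Figure D1:**
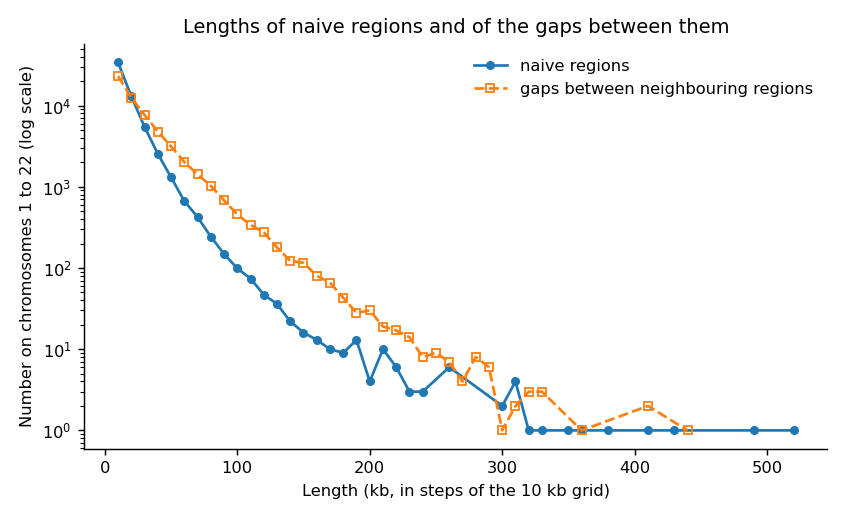
Number of naive regions (filled circles) and of gaps between neighbouring regions (open squares) at each length in kb, on a log scale, over chromosomes 1 to 22. Both counts decline steeply from 33990 regions and 23095 gaps at 10 kb; the longest region is 520 kb and the longest gap 440 kb.

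The long gaps crossed both gene-free and gene-rich sequence. The longest, 440 kb on chromosome 19 (24450001 to 24890000), held no coding gene. It lies under the 500 kb limit for leaving out empty stretches, and whether reads can be placed in it was not tested. A gap of 360 kb on chromosome 5 (157380001 to 157740000) held or touched CYFIP2, NIPAL4, ADAM19, SOX30, C5orf52 and THG1L. A gap of 330 kb on chromosome 3 (9540001 to 9870000) held or touched 12 coding genes, among them the DNA repair glycosylase OGG1 and the chromatin reader BRPF1.

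Long regions were gathered on a few chromosomes. Chromosome 21 carried 67 of the 386 regions of 100 kb or more and chromosome 14 carried 50, against 5 on chromosome 1 and 4 on chromosome 4. Of the 386, 164 touched a coding gene. On chromosome 14 the longest region that did so spanned 300 kb (19990001 to 20290000) and touched 8 olfactory receptor genes, from OR4K14 to OR11H4, and TTC5. The one on chromosome 21 spanned 330 kb (15000001 to 15330000) with NRIP1, a nuclear receptor corepressor. On chromosome 22 it was 260 kb long (16570001 to 16830000) with CCT8L2 and XKR3, on chromosome 15 190 kb (24610001 to 24800000) with NPAP1, and on chromosome 13 180 kb (29740001 to 29920000) with UBL3. The share of regions that touched a coding gene was 49.9% among single bins, 54.5% among regions of 5 to 9 bins and 42.5% among those of 100 kb or more. The share that touched no annotated gene at all was 32.4% among single bins and 11.9% among the longest. A longer stretch meets a gene more readily, so shares of regions of unlike length cannot be compared directly. Of all 275687 bins analysed, covered or not, a coding gene touches 133127 and no gene touches 91622.

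The next question was how far a bin's state extended along the chromosome. Next to a covered bin, 10 kb away, 46.6% of bins were covered. Next to an uncovered bin the figure was 34.9%. The difference of 11.6 percentage points was 7.92 points at 100 kb, 5.82 points at 1000 kb and 3.90 points at 10000 kb. Chromosomes differ in their overall share, which adds to the pooled values, so the difference was also taken within each chromosome. There it averaged 10.5 points at 10 kb (SD 4.59 over 22 chromosomes), 6.46 points at 100 kb (SD 3.41), 3.80 points at 1000 kb (SD 2.49) and 1.37 points at 10000 kb (SD 1.75). It was above 0 on 22 of 22 chromosomes up to 1000 kb and on 17 of 22 at 10000 kb. About 4 points of the within-chromosome difference at 10 kb were gone by 100 kb, and the remainder declined over megabases.

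Chromosome 21 stood apart in this measure. Next to a covered bin of chromosome 21, 78.5% of bins were covered, and next to an uncovered bin 48.3%, a difference of 30.2 points. On the other 21 chromosomes the difference lay between 7.08 and 12.6 points, the highest on chromosome 14. At 1000 kb chromosome 21 still showed 11.8 points, while chromosome 20 showed 0.295. Without chromosome 21, 45.7% of bins next to a covered bin and 34.8% of those next to an uncovered bin were covered over the autosomes.

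**Figure D2:**
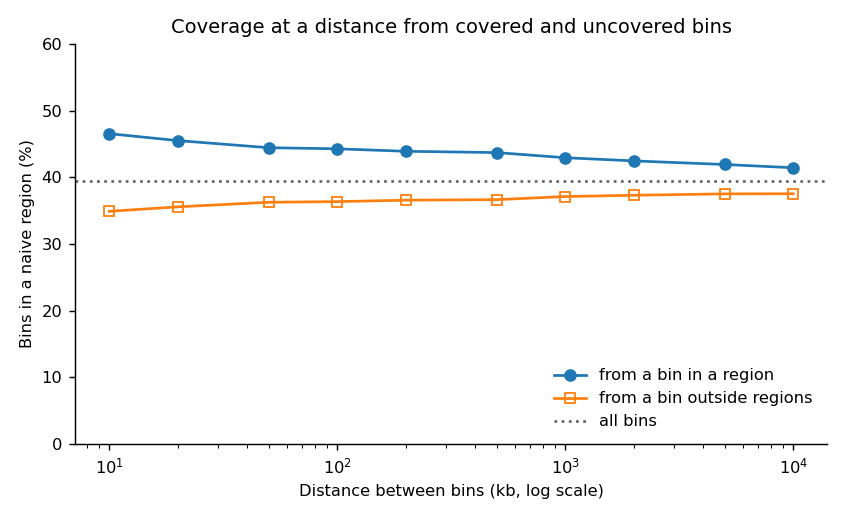
Share of 10 kb bins in a naive region (percent) at a given distance in kb (log scale) from a covered bin (circles) and from an uncovered bin (open squares), pooled over chromosomes 1 to 22; the dotted line is the share of all bins, 39.5%. The lines stand at 46.6% and 34.9% at 10 kb and draw together to 41.4% and 37.5% at 10000 kb.

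Local density was then measured in 1 Mb windows. Over 2742 windows the covered share averaged 39.4% (SD 13.9 points over windows), with a median of 37%, a 5th percentile of 21% and a 95th of 64%. The lowest window was at 11% and the highest at 96%. Differences between chromosomes made up 27.8% of the variance, and the SD within chromosomes was 11.9 points. Neighbouring windows resembled each other: the correlation over 2712 pairs was r = 0.753, and within single chromosomes it ranged from 0.466 to 0.860 with a median of 0.615. These correlations describe windows of 1 list, which share libraries and settings.

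The share of whole chromosomes ran from 33.0% of chromosome 2 to 69.2% of chromosome 21. Chromosomes 1, 3, 4, 5 and 6 were between 33.0% and 34.9%. Chromosomes 14, 19, 20 and 22 were between 51.6% and 53.8%. The number of regions followed these shares over a narrow range: chromosomes 1 to 6 had between 19.9 and 20.9 regions per Mb, and chromosome 19 had 22.8, the highest. Chromosome 21, with the largest share, had the fewest, 14.9. Mean region length ranged more widely, from 16.3 kb on chromosome 3 to 24.6 kb on chromosome 14 and 46.4 kb on chromosome 21. Single bins were 63.6% of the regions of chromosome 3 and 32.0% of those of chromosome 21.

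**Figure D3:**
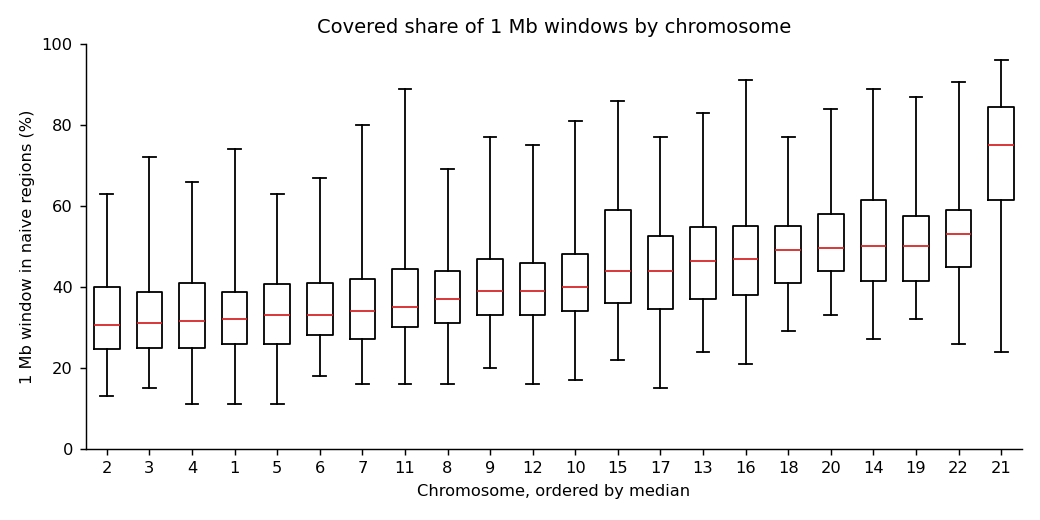
Covered share (percent) of 1 Mb windows on each autosome, ordered by median; boxes show quartiles, the line the median and whiskers the lowest and highest window. Medians run from 30.5% on chromosome 2 to 75% on chromosome 21, whose windows span 24% to 96%.

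Across windows, region number and covered share had a rank correlation of rho = 0.475 (n = 2742), but the densest windows did not have the most regions. Windows under 25% covered had 15.9 regions on average (SD 2.75, n = 342) and those from 25% to under 40% had 21.1 (SD 2.81, n = 1200). From 40% to under 60% there were 23.5 regions (SD 2.72, n = 964), and at 60% and over 19.025 (SD 4.90, n = 236). The covered sequence per region went from 13.1 kb in the first class to 42.9 kb in the last. At 60% and over, windows had fewer and longer regions than those just below.

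Windows at 80% or more numbered 35. Of these, 27 lay on acrocentric chromosomes, 14 of them on chromosome 21 and 7 on chromosome 14. Of all 2742 windows, 98 lie on chromosome 13, 87 on 14, 85 on 15, 39 on 21 and 37 on 22. The 35 windows held 5.03 coding genes on average. Of the 35, 11 held none, beside 362 of all 2742.

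Among the 1353 windows with at least 5 coding genes, the densest held many members of clustered families. The first (chromosome 11, 55000001 to 56000000) was 89% covered, and 20 of its 21 coding genes touched a region. Over the autosomes 76.7% of coding genes did, and a window picked for high coverage leaves little room to touch none. Most of the 21 genes are olfactory receptors, odorant sensors of the nasal epithelium, such as OR5D3 and OR4C11, each 100% covered. TRIM51 was at 100% and TRIM48 at 12.4%. The second, also on chromosome 11 (49000001 to 50000000), was 87% covered, with FOLH1, a folate hydrolase, at 68.5% of its body and TRIM49B, TRIM64C and OR4C12 at 100%. The third lay on chromosome 19 (22000001 to 23000000), was 87% covered and held 8 zinc finger genes. Of these, ZNF676, ZNF257 and ZNF492 were at 100% and ZNF723 at 40.2%. The fourth and the fifth were neighbours on chromosome 14 (19000001 to 20000000 and 20000001 to 21000000), each 84% covered. They held the receptors OR4N2 (99.045%), OR4K1 and OR4M1 (100%), the duplicated gene POTEG (100%), the telomerase-associated gene TEP1 (58.2%), CCNB1IP1 (100%), TTC5 (49.3%) and RNASE4 (39.965%), of a cluster of secreted ribonucleases. POTEG, TRIM49B and TRIM64C have near-identical copies, and the part of misplaced reads in their bins was not tested.

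The sparsest such windows were between 11% and 13% covered. One on chromosome 4 (145000001 to 146000000) was 11% covered, with ZNF827 at 5.52%, ANAPC10, a subunit of the anaphase-promoting complex, at 27.5%, and C4orf51 and SMAD1, a transducer of BMP signals, at 0. One on chromosome 5 (157000001 to 158000000), also at 11%, held CYFIP2 (26.2%), CLINT1 (13.6%) and ADAM19 (0). A second on chromosome 5 (160000001 to 161000000) was at 12%, with the lipid flippase gene ATP10B at 7.34%, CCNJL at 10.6%, PWWP2A at 20.9% and TTC1 at 35.5%. A window on chromosome 2 (227000001 to 228000000) was at 13% and held COL4A4 (15.2%) and COL4A3 (33.3%), basement membrane collagens, AGFG1 (23.8%) and DAW1 (0). The last, on chromosome 4 (108000001 to 109000000), was at 13%. It had LEF1, a transcription factor of WNT signalling, at 33.0%, the fatty acid oxidation gene HADH at 22.1%, and ETNPPL and OSTC at 0.

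Across windows, coverage was highest where coding genes were absent and did not decline evenly with their number. Windows without a coding gene averaged 46.7% (SD 14.4, n = 362) and those with 1 to 2 genes 41.3% (SD 14.8, n = 604). With 3 to 5 genes the mean was 37.0% (SD 13.7, n = 622), with 6 to 10 genes 36.5% (SD 13.2, n = 607) and with 11 to 20 genes 36.5% (SD 10.8, n = 355). Windows with over 20 genes averaged 42.1% (SD 12.04, n = 192), and 20.8% of them lie on chromosome 19. Measured from the mean of their own chromosome, gene-free windows were 7.26 points above it (SD 11.7), those with 11 to 20 genes at -3.53 points (SD 9.84) and those with over 20 genes at -0.894 points (SD 11.8). The spread within each class was larger than these differences. The rank correlation of coverage and coding gene number was rho = -0.164 over all windows. Within chromosomes it had a median of -0.286 and was below 0 on 21 of 22, from -0.768 on chromosome 22 to 0.0954 on chromosome 1.

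At the scale of single bins the contrast was small. Bins that a coding gene touches were covered in 38.6% of cases (n = 133127), bins that only other genes touch in 40.025% (n = 50938) and bins that no gene touches in 40.6% (n = 91622). The last were higher than the first on 18 of 22 chromosomes.

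**Figure D4:**
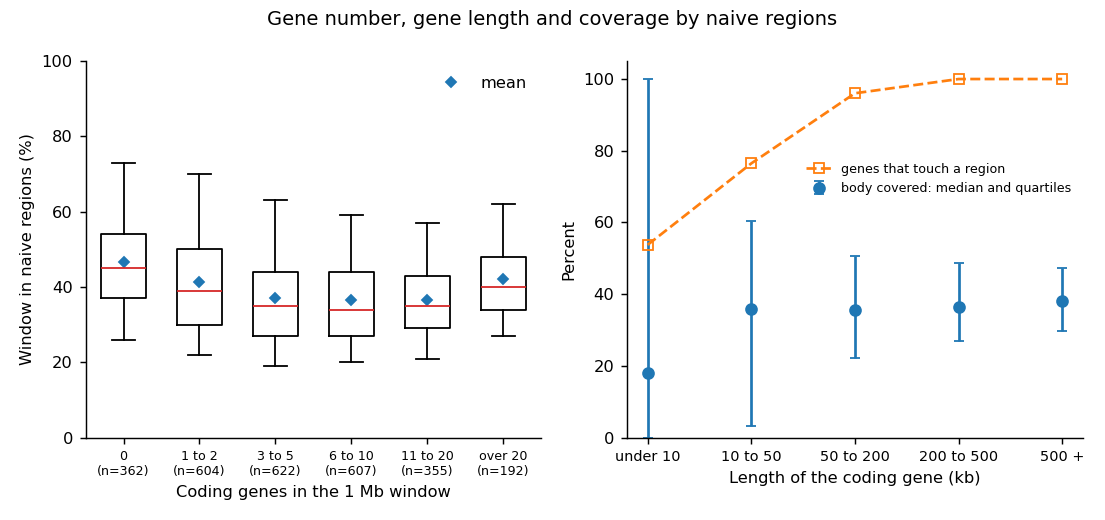
Left, covered share (percent) of 1 Mb windows by number of coding genes; boxes show quartiles and median, whiskers the 5th and 95th percentiles, diamonds means. Right, coding genes by length class in kb: share that touch a naive region (open squares) and covered share of the gene body (circles, median with quartiles), both in percent; touching goes from 53.8% to 100%, while the median body share from 10 kb upwards lies between 35.7% and 38.1%.

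Genes were counted next, and here gene length decided what a count could show. Of 18973 protein-coding genes, 14547 touched a naive NAD, 76.7%. That share was 53.8% of 5234 genes under 10 kb, 76.5% of 7739 genes of 10 to 50 kb, 96.0% of 4660 genes of 50 to 200 kb and 100% of the 1340 longer ones. With a mean spacing of 48.25 kb between regions, nearly any long gene meets one. The covered share of the gene body is free of this. Its median was 35.9% for 10 to 50 kb, 35.7% for 50 to 200 kb, 36.4% for 200 to 500 kb and 38.1% for 500 kb and over. For genes under 10 kb the median was 18.0% and the mean 43.3% (SD 45.9), because 2420 of them were at 0 and 1722 at 100%. The quartiles closed in with length, from 3.38% and 60.5% at 10 to 50 kb to 29.8% and 47.2% at 500 kb and over.

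The covered shares of the 303 coding genes of 500 kb and over ran from 10.3% to 86.5%. That none was free of naive NADs or filled by them follows from the map itself. Its longest gap is 440 kb, and its only region above 500 kb, of 520 kb, touches no coding gene. Synaptic and neuronal adhesion genes, many of them among the longest of the genome, have a median length of 1108 kb. All touched a region (50 of 50), as did 100% of coding genes of 200 kb or more. The median body share of the list was 42.6%, beside 38.1% for coding genes of 500 kb and over. The highest were DSCAM, a cell adhesion gene of chromosome 21, at 74.9% of its 836 kb, LRRC4C at 64.6%, the receptor phosphatase PTPRT at 62.0% and the axon guidance receptor ROBO1 at 58.9%. The lowest were SORCS3 at 17.6%, KIRREL3 at 18.96%, ASTN2 at 19.8% and CNTN4 at 20.9%.

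Among the 1340 coding genes of 200 kb or more, the 5th and the 95th percentile of body share were 15.6% and 67.15%. Of the 10 highest, 4 lie on chromosome 21: TMPRSS15, the gene of enteropeptidase, at 92.7%, the adhesion gene NCAM2 at 86.5%, CHODL at 85.7% and the kainate receptor gene GRIK1 at 84.4%, where the chromosome as a whole was at 69.2%. EPHA3, an ephrin receptor gene, was at 88.7% on chromosome 3, which as a whole was at 33.0%. The others were WDR72 on chromosome 15 (86.8%), ITFG1 on 16 (83.7%), STXBP6 on 14 (83.4%), and CNTNAP3B on 9 (83.3%) and SRGAP2B on 1 (80.8%), both recent duplicates in which reads may be misplaced. The 10 lowest were the kinase gene NEK1 (1.18%), NEMP2 (4.40%), ITPR1, the inositol trisphosphate receptor of the endoplasmic reticulum (5.65%), TTC29 (6.63%), CCDC148 (7.001%), ST7 (7.23%), ATP10B (7.34%), CEP85L (8.02%), IGSF11 (8.15%) and TNS1 (8.54%). These lie on chromosomes 2 to 7.

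Because touching depends on length, classes and lists of genes were compared by whether the gene's midpoint lay in a region. This was so for 39.1% of all coding genes and 43.2% of those under 10 kb. The 95% Wilson intervals given with the shares cover counting error only, and members that sit in the same or adjacent bins are not independent.

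The 3 most numerous noncoding classes had shares within 3 points of the covered share of the genome, 39.5%. The midpoint was covered in 39.3% of 17525 lncRNA genes (interval 38.6% to 40.02%), 41.6% of 14160 pseudogenes (40.8% to 42.4%) and 36.7% of 1793 miRNA genes (34.5% to 39.0%), the last with an interval below 39.5%. Transcribed pseudogenes were at 45.4% (42.6% to 48.3%, n = 1172). lncRNA genes of each length class lay between 38.1% and 41.5%. Small nucleolar RNA genes, only some of whose products guide the modification of ribosomal RNA, were at 44.7% (41.8% to 47.6%, n = 1144). Averaged over members, their chromosomes were at 41.1%. The share differed between chromosomes. On chromosome 15, which carries a large imprinted array, 78 of 121 were covered, and on chromosome 14, which carries another, 60 of 75. On chromosome 2 it was 21 of 90. Chromosomes 15, 14 and 2 as a whole were at 48.0%, 53.4% and 33.0%. The part of misplaced reads in the arrays was not tested.

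Transfer RNA genes, transcribed by RNA polymerase III, were at 55.1% (50.3% to 59.7%, n = 425). On chromosome 6, which holds the largest cluster, 89 of 154 were covered, on chromosome 5 16 of 18, and on chromosome 7 3 of 22. Chromosomes 6, 5 and 7 as a whole were at 34.9%, 34.3% and 36.0%. Small nuclear RNA genes, mostly of the spliceosome, were at 53.4% (45.3% to 61.3%, n = 146). The variable segments of immunoglobulin and T cell receptor genes, clustered and silent outside lymphocytes, were at 69.4% (63.2% to 74.9%, n = 235). This was not shared by all loci. On chromosome 14, 82 of 97 segments were covered, and 39 of 45 on chromosome 2, where the kappa light chain lies. On chromosome 7, where the beta and gamma T cell receptor loci lie, it was 13 of 50. Chromosomes 14, 2 and 7 as a whole were at 53.4%, 33.0% and 36.0%. Joining segments were at 61.2% (51.3% to 70.3%, n = 98). Averaged over members, the chromosomes of variable segments were at 45.6% and those of joining segments at 49.2%. Copies of transfer RNA, small nuclear RNA and V segment genes can be near-identical, and the part of misplaced reads in these shares was not tested.

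Of 21 lists of coding genes, histone genes, olfactory receptors and cytosolic ribosomal protein genes had the largest shares. Replication-dependent histone genes, which are expressed in S phase, had the midpoint covered in 58 of 69 members, 84.1% (73.7% to 90.9%). They sit close together, and the 69 members fall into 38 bins, of which 31 were covered. Covered in full were H2BC18, H4C15, H2BC4 and H2BC12, and at 0 were the linker histones H1-4 and H1-5, H2BC1 and H2AC25. Olfactory receptors had 251 of 388 members covered at the midpoint, 64.7% (59.8% to 69.3%), in 243 of 377 bins. OR51E2, OR4K1, OR2M3 and OR5AN1 were at 100%, and OR2C1, OR14A2, OR8B2 and OR8B3 at 0. Copies within the histone and receptor families can be near-identical, and the part of misplaced reads in their counts was not tested. Zinc finger genes named ZNF, many of them repressors of transposable elements, had 267 of 497, 53.7% (49.3% to 58.1%). ZNF676 (81.2 kb), ZNF208 (71.1 kb), ZNF33A (57.3 kb) and ZNF875 (51.6 kb) were covered from end to end, and ZNF324B, ZNF160, ZNF484 and ZNF777 were at 0. Of the 497 ZNF genes 246 lie on chromosome 19, which as a whole was 51.6% covered. Averaged over all members, their chromosomes were at 45.6%.

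Cytosolic ribosomal protein genes are housekeeping genes spread over 20 autosomes, and no 2 of the 78 shared a midpoint bin. Their midpoint was covered in 47 of 78, 60.3% (49.2% to 70.4%), and in 39 of the 66 under 10 kb, 59.1%. RPL22, RPL5, RPS14 and RPL4 were at 100%, and RPL31, RPS10, RPL15 and RPL3L, a muscle paralogue that the symbol pattern took in, at 0. Mitochondrial ribosomal protein genes were at 42.9% (32.4% to 54.0%, n = 77) and proteasome subunit genes at 40.4% (27.6% to 54.7%, n = 47). When single-bin regions were left out, 37.2% of cytosolic ribosomal protein genes and 26.5% of all coding genes had a covered midpoint. Ribosomal protein genes have many processed pseudogenes with near-identical sequence, and the part of misplaced reads in their count was not tested.

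Keratin-associated protein genes of hair were at 55.3% (45.3% to 65.0%, n = 94), near the 56.8% average of the chromosomes on which they lie. Defensins, antimicrobial peptides, were at 51.1% (37.0% to 65.0%, n = 45). Keratins (38.2%, n = 55), HOX genes (38.5%, n = 39), glycolysis enzymes (37.5%, n = 16), clustered protocadherins (34.0%, n = 53) and secreted proteins of the liver (33.3%, n = 33) lay within 6 points of all coding genes, with intervals that include 39.1%. The protocadherins form 1 cluster on chromosome 5, and their 53 midpoints fall into 29 bins, of which 9 were covered. Highest and lowest members of the HOX and liver lists were as follows. HOXD13, HOXB9, HOXC11 and HOXB13 were at 100% and HOXD3, HOXC5, HOXC6 and HOXA10 at 0. ALB, the albumin gene, was at 100% and AFP, the fetal albumin relative beside it on chromosome 4, at 0.

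Genes of nucleolar structure and RNA polymerase I were at 32.5% (20.1% to 48.0%, n = 40). FBL, the methyltransferase fibrillarin, TAF1D and POLR1H were at 100% of the body and TBP at 84.5%. The polymerase subunits POLR1A and POLR1B, TCOF1 and TTF1 were at 0. PRC2 genes, of the complex that methylates histone H3 at lysine 27, had 6 of 12 midpoints covered (interval 25.4% to 74.6%). PHF1 and EPOP were at 100%, EED at 69.99% and LCOR at 55.0%, the catalytic subunit EZH2 at 26.0%, and PHF19, EZH1 and RBBP4 at 0. Among the silencing factors of LINE1 and other repeats, 10 of 22 had a covered midpoint (26.9% to 65.3%). The intervals of the nucleolar, PRC2 and silencing lists each include the 39.1% of all coding genes. Of the silencing factors, TRIM28 was at 100%, SAFB at 84.8%, MPHOSPH8 at 74.9% and CBX1 at 68.2%. NCL and ZCCHC3 were at 0, PPHLN1 at 27.6% and SAFB2 at 27.95%.

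Genes of pluripotency and of the 8-cell embryo were few and their intervals wide. Of genes linked to the naive state, 6 of 24 had a covered midpoint, 25% (11.999% to 44.9%), against 11 of 22 linked to the primed state, 50% (30.7% to 69.3%), and 6 of 13 shared by both, 46.2% (23.2% to 70.9%). All 3 intervals include the 39.1% of coding genes. TBX3 and KHDC3L were covered in full, HORMAD1 to 91.5% and DPPA2 to 71.3%, and ARGFX, DNMT3L, TRIM60 and ZFP42 not at all. On the primed side, SALL2, OTX2, VIM and FZD7 were at 100% and PODXL, SOX11, ZIC5 and SFRP2 at 0. The 8-cell list had 7 of 23, 30.4% (15.6% to 50.9%).

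**Figure D5:**
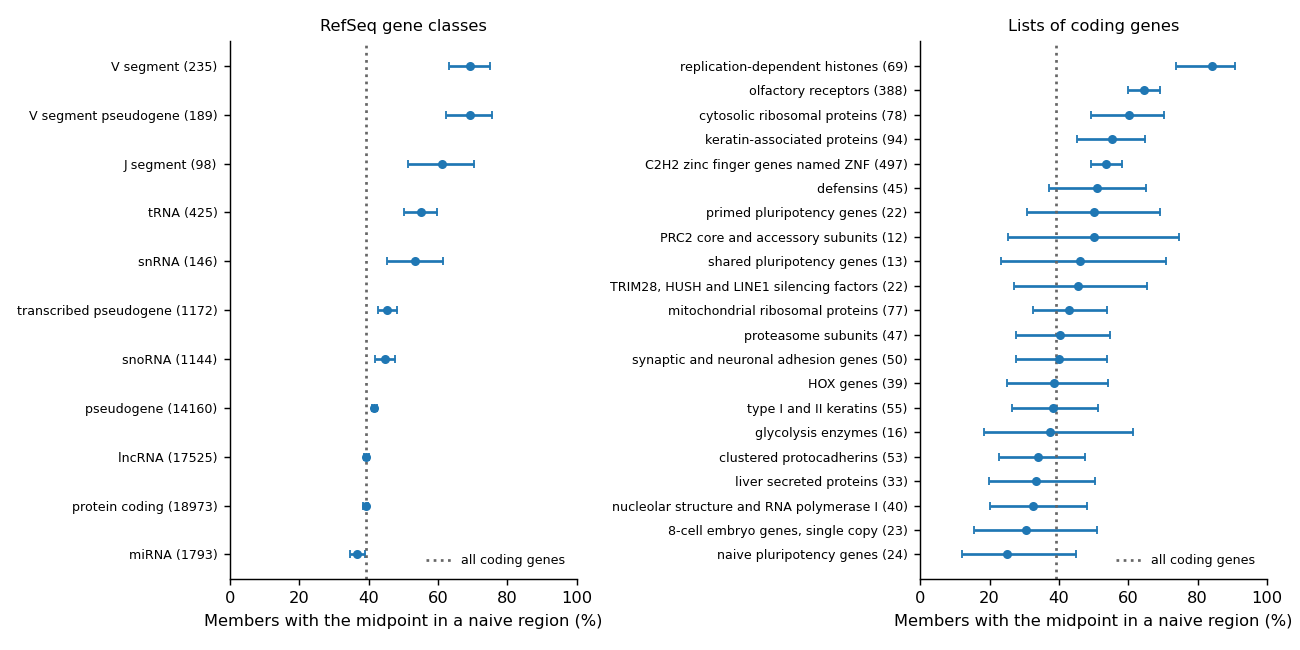
Share of genes whose midpoint lies in a naive region (percent, points) with 95% Wilson intervals (bars, counting error only), for RefSeq gene classes (left) and lists of coding genes (right), with the number of genes in brackets; the dotted line is the share of all coding genes, 39.1%. Histone genes at 84.1% and V segments at 69.4% stand highest, miRNA genes at 36.7% and naive-state genes at 25% lowest.

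The covered share was highest at the start itself among 15 distances up to 1000 kb away. In a second profile, in 10 kb steps up to 300 kb to either side, it was highest there as well. Of 15101 coding genes with a promoter in the RefSeq table, the most upstream start lay in a naive NAD for 6224, 41.2%. Away from the start the covered share was 37.0% at 50 kb upstream, 37.1% at 100 kb upstream and 37.9% at 50 kb downstream, and 39.3% at 1000 kb upstream. The spread over chromosomes at these distances was between 6.91 and 8.47 points (SD).

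Promoter composition differed little between the inside and the outside of the map. The mean GC content was 60.95% inside (SD 12.1, n = 6224) and 61.7% outside (SD 11.8, n = 8877), and the CpG ratio, observed over expected from the base content, was 0.670 on both sides (SD 0.325 and 0.316). The GC content was lower inside on 15 of 21 chromosomes, and inside minus outside it averaged -0.840 points (SD 1.5002). The motif TATAAA, searched on both strands, was found in 10.2% of promoters inside and 9.55% outside. The most AT-rich promoters stood higher: of 890 under 40% GC, 49.0% lay inside (45.7% to 52.3%). The other 4 classes, from 40% upwards in steps of 10 points, had between 39.3% and 41.6% inside. Olfactory receptors are frequent in the AT-rich class, and without them 44.0% of the remaining 700 lay inside, beside 41.2% of all promoters. No interval was computed for that 44.0%. With the receptors included, the share of the AT-rich class had an SD of 14.2 points over chromosomes. The printed promoters of TRIM51 and TRIM49B belong to this class, as does that of C4orf51, which lay outside.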

How the data were processed

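DNA of pelleted nucleoli and of whole cells was sequenced from naive H9 cells (3 libraries each). Per the labels, the authors deposited 1 list of NADs for the state, with region starts and ends on hg38. The submitters' processing notes name BWA, SICER and SAMtools 1.10, without roles. The settings, the way in which replicates were joined and the depth were not given in the sources used here. The error that depth puts on the values is therefore not known.

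Coverage was counted in 10 kb bins, after 14 stretches of at least 500 kb (117.4 Mb) with no region of the naive or primed list and no gene were left out. Windows of 1 Mb were kept where at least 80% of their bins were. RefSeq genes of GRCh38.p14 were used, without 676 that carry coordinates of other scaffolds on chromosomes 1 to 22, leaving 56080. Promoters of chromosome 8 were not analysed here. With 1 list no test was made; shares have 95% Wilson intervals, medians and SDs.

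Gene lists were written by symbol or by name, and the members and lists were chosen with earlier results of these data known. Genes are named by rule: the 5 densest and the 5 sparsest windows with at least 5 coding genes and their 4 longest genes, the 10 highest and the 10 lowest genes of 200 kb or more, and up to 4 highest and 4 lowest of each list by covered share. Genes in the longest gaps and single chromosomes were singled out after their values were seen. Some genes and 1 gap that these rules name are not reported here. Code in Python 3.11.15 with numpy 2.4.6, pandas 2.3.3, scipy 1.17.1 and matplotlib 3.10.9 was checked on made-up regions with known answers.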

Additional observations from a re-analysis of the deposited data

How the results depend on the processing

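No paired analysis was possible because each state has 1 list and no value per replicate, and no library could be left out for the same reason. The covered share of the autosomes, 39.5%, was 37.9% with all sequence kept, 57.0% with gaps up to 20 kb merged, 77.9% with gaps up to 50 kb merged and 27.2% when only regions of 20 kb or more were counted. Adding chromosome X gave 40.2% and it was 39.1% without chromosome 21; alternatives that add or leave out chromosome X or 21, and the list shares in longer regions, were chosen after seeing the data. The number of regions was 22597 after merging at 20 kb and 24235 at 20 kb or more. The median gap was 40 kb and 50 kb under these. The covered share next to a covered bin was 67.7% with regions of at least 20 kb, by construction, since each then holds a neighbour, and 45.7% without chromosome 21. With all sequence kept it was 46.5%.

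The SD over windows was 15.2 points at 500 kb, 13.04 at 2 Mb, 14.1 with windows moved by 500 kb, 16.1 with regions of at least 20 kb and 13.3 without chromosome 21. The rank correlation with coding genes was -0.143 at 500 kb, -0.132 at 2 Mb, -0.191 without chromosome 19, -0.286 as the median within chromosomes and -0.160 without chromosome 21, below 0 in each. Coding genes in naive NADs numbered 6438 when 50% of the body had to be covered and 7417 by midpoint; they were 9818 with regions of at least 20 kb and 15233 after merging at 20 kb.

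With regions of at least 20 kb, the median body share was 0 for genes under 10 kb and for 10 to 50 kb, 21.3% for 50 to 200 kb, 22.1% for 200 to 500 kb and 24.5% for longer ones. Pooled over all bases of a class it was 41.6%, 37.8%, 37.5%, 38.4% and 40.3%, in the same order. By midpoint in place of any overlap, lncRNA genes went from 62.7% to 39.3%, coding genes from 76.7% to 39.1%, pseudogenes from 44.2% to 41.6% and transcribed pseudogenes from 67.9% to 45.4%. The other 7 classes have median lengths of at most 0.475 kb, so midpoint and any overlap gave nearly the same count by construction. With regions of at least 20 kb, mean promoter GC content was 60.6% inside and 61.7% outside. It counted as kept for any shift under the SD over promoters inside, 12.1 points, a limit that could hardly be passed. With regions of at least 20 kb, the midpoint was covered in 54.6% of olfactory receptors, 42.9% of ZNF genes and 79.7% of histone genes, beside 26.5% of all coding genes.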
